A study of Homo sapiens with 6 samples.

Results

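The alpha2,8 sialyltransferases ST8SIA1 to ST8SIA6 were examined in RKO, a long-established line of human colon carcinoma cells. Probe sets, the groups of short probes on an Affymetrix array whose signals are combined into 1 value, were assigned to these genes by matching the RefSeq accession in their identifier to its gene symbol. This found 8 of 1259 probe sets, which stand for all 6 genes: 3 for ST8SIA4 and 1 for each of the other members. RKO C2 is a clonal population of the line, and RKO C2 F3 was obtained from C2 by fluorescence-activated sorting of cells low in u-PAR, the urokinase receptor (C2 and F3 hereafter). Each was represented by 3 arrays, and no treatment is named for either population. F3 is called clonal in the sample labels and only a population in the design text, and whether its 3 arrays, or those of C2, stem from separate cultures is not said. The study asked which glycosylation enzyme is deficient where u-PAR matures incompletely.

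Sialyltransferases are Golgi enzymes that transfer sialic acid from the donor CMP-sialic acid to the end of a glycan. The ST8SIA enzymes are the branch of the family that adds a sialic acid to another sialic acid, which builds disialyl, oligosialyl and polysialyl chains. ST8SIA1 makes the ganglioside GD3, ST8SIA5 acts on longer gangliosides, ST8SIA2 and ST8SIA4 make the polysialic acid of the neural cell adhesion molecule, ST8SIA3 adds short chains to glycolipids and glycoproteins, and ST8SIA6 adds them mainly to O-glycans. Their products are best known from brain, neuroectodermal tumours and some leukocytes.

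The values are log2 expression, normalized with RMA, and come with no detection call. The 6 arrays had medians of 5.48 to 5.51 and correlated pairwise, across probe sets, at 0.9981 to 0.9992, and the median within-population SD of a probe set was 0.083. Only 3 of 13 markers of colon epithelium on the list used here were measured (MUC2, LGALS4 and MUC13), and their mean log2 levels ran from 4.18 to 5.13, below the table's median of 5.50. The number of arrays limits the precision of what follows.

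The members fell into a single probe set of middling signal, ST8SIA5, and 7 probe sets of low signal. ST8SIA5 had a mean log2 level of 5.87 over the 6 arrays, higher than 699 of the 1259 probe sets. The other 7 probe sets lay below the table's lower quartile of 3.80, so that 5 of the 6 genes had no probe set above it. ST8SIA3, at 3.78, and ST8SIA2, at 3.62, came next, followed by ST8SIA1 at 2.70, ST8SIA6 at 2.59 and the 3 probe sets of ST8SIA4 at 2.51, 2.18 and 2.11. The 2 lowest means of the whole table belonged to ST8SIA4. In this order the 6 arrays of one probe set stood clear of the next at 3 places only: below ST8SIA5, below ST8SIA2, and between the brightest ST8SIA4 probe set and its other two. The ranges of ST8SIA3 and ST8SIA2 overlapped, as did those of ST8SIA1, ST8SIA6 and the brightest ST8SIA4 probe set between neighbours. Array by array, ST8SIA3 nevertheless lay above ST8SIA2 on all 6, and ST8SIA1 above ST8SIA6 on all 6. ST8SIA6 lay above the brightest ST8SIA4 probe set except on F3 replicate 3, at 2.42 against 2.53, so the signals of this pair had no constant order. Agreement across arrays orders signals only and settles no order of transcript levels, since a fixed difference in hybridisation would repeat on every array.

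**Figure D1:**
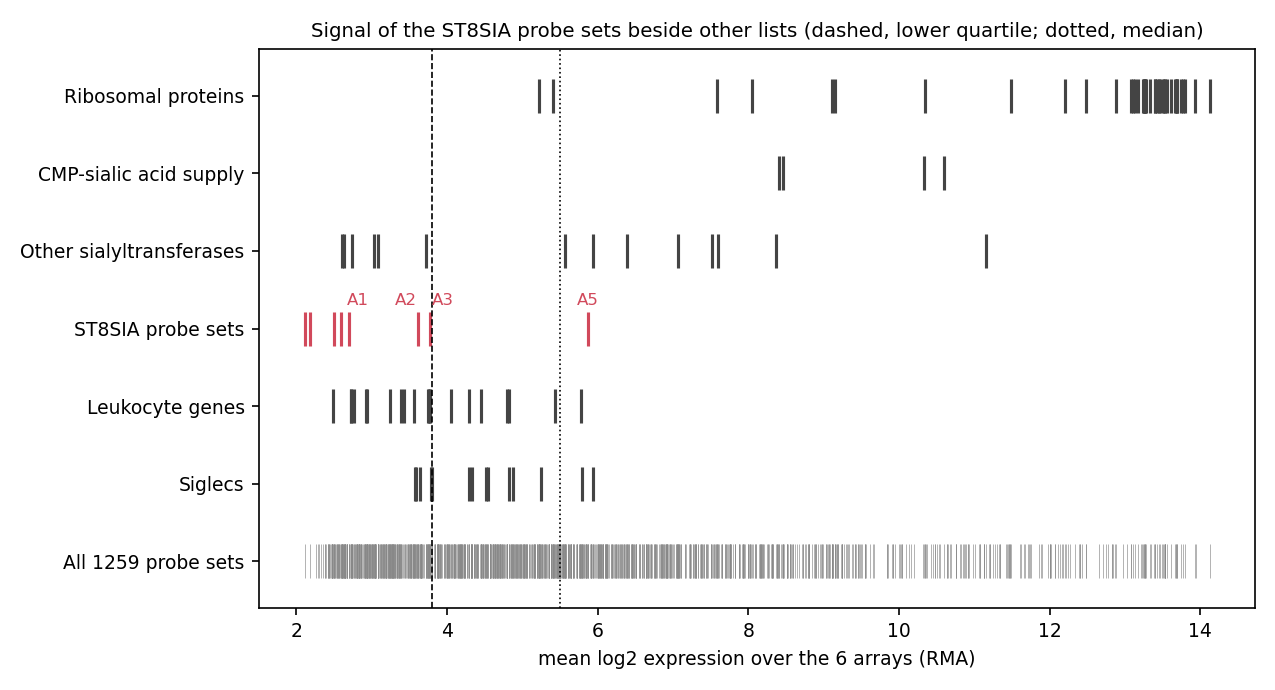
Mean log2 expression over the 6 arrays (RMA, horizontal axis) for each ST8SIA probe set (red ticks; A1, A2, A3 and A5 mark ST8SIA1, ST8SIA2, ST8SIA3 and ST8SIA5), for the genes of 5 lists and for all 1259 probe sets. ST8SIA5 sits at 5.87, to the right of the table's median, and the other 7 ticks lie left of the lower quartile of 3.80.

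These levels are signals and depend on how well each set of probes hybridises. Among 143 pairs of probe sets of the same gene in this table, the median gap in mean log2 level was 0.71 and the largest 5.14. The gap of 2.09 between ST8SIA5 and ST8SIA3 was reached by 20 of these pairs. As a guide to low signal, 20 measured genes of leukocyte lectins and receptors, which an epithelial line is not known for, had mean log2 levels from 2.49 to 5.78, with 13 of the 20 below the lower quartile. ST8SIA5 lay above all 20, ST8SIA3 above 13, ST8SIA2 above 10, ST8SIA1, ST8SIA6 and the brightest ST8SIA4 probe set above 1 each, and the remaining ST8SIA4 probe sets above none. Of 5 measured neural genes, likewise not known for such a line, 2 lay above ST8SIA5 by their brightest probe set. MAG (a myelin protein) was at 5.94, with its other probe sets at 5.09 and 4.62. BCAN (a brain proteoglycan) was at 8.52, with its other probe set at 4.82. The low signals of 5 member genes fell within or below the range of the leukocyte genes, and the arrays do not tell a low transcript level from none.

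None of the 8 ST8SIA probe sets passed the test of F3 against C2. In limma, a linear model that pools variance information across probe sets, 0 of 8 passed a Benjamini-Hochberg adjusted p of 0.05 over the whole table, where 1 of 1259 probe sets did (0.0794%). That probe set reports PIGB, a mannosyltransferase of glycosylphosphatidylinositol anchor synthesis, at a log2 change of -0.87 (limma adjusted p = 0.013). At an unadjusted limma p of 0.05 the count was again 0 of 8, against 5.40% of all probe sets, and an ordinary two-sample test also gave 0 at either threshold. With the replicate number as a blocking term in limma it stayed at 0 of 8, against 8.02% of all probe sets. Of the 8 changes, 4 were positive and 4 negative, with a median of -0.0030 beside -0.0064 over all probe sets. Their median size was 0.067 on the log2 scale, beside 0.047 over all probe sets, of which 95% changed by less than 0.17. The smallest limma adjusted p among the 8 was 0.97.

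**Figure D2:**
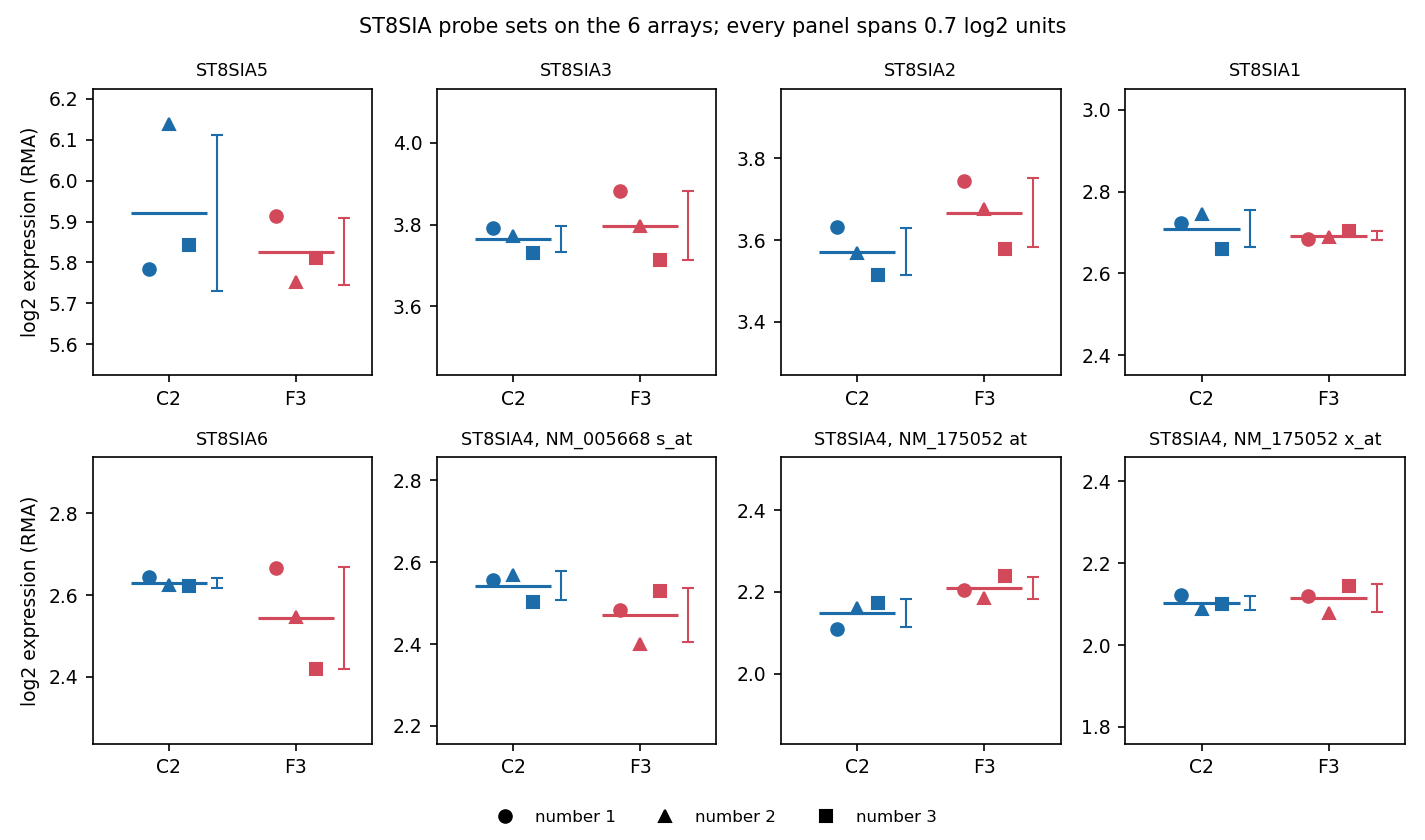
Log2 expression (RMA) of the 8 ST8SIA probe sets on each array of C2 (blue) and F3 (red), with the marker shape giving the replicate number, the horizontal line the mean and the bar at the side 1 SD on each side of it (n = 3). Each panel spans the same range of 0.7 log2 units; the populations overlap in every panel but that of the ST8SIA4 probe set NM_175052.1_psr1_at, and C2 replicate 2 stands high for ST8SIA5.

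Among the enzymes of gangliosides, ST8SIA5 (probe set NM_013305.4_psr1_at) measured 5.78, 6.14 and 5.84 on the C2 arrays and 5.91, 5.75 and 5.81 on the F3 arrays, in the order of replicates 1 to 3. The populations overlapped, and the highest value was that of C2 replicate 2. The log2 means were 5.92 ± 0.19 in C2 and 5.83 ± 0.08 in F3 (SD, n = 3 each), a log2 change of -0.096 (SE 0.095, 95% interval -0.31 to 0.12, limma adjusted p = 0.98). The interval runs from 1.24-fold lower to 1.09-fold higher signal in F3. The same-numbered arrays differed by 0.13, -0.39 and -0.030, F3 minus C2, and without C2 replicate 2 the change was 0.013. ST8SIA5 was the most variable member, with a pooled within-population SD of 0.15, above that of 89.4% of the table's probe sets.

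ST8SIA1, the GD3 synthase (NM_003034.3_psr1_at), measured 2.72, 2.74 and 2.66 in C2 and 2.68, 2.69 and 2.70 in F3. The F3 values lay inside the C2 range. The log2 change was -0.017 (SE 0.050, 95% interval -0.13 to 0.10, limma adjusted p = 1.00 to 2 decimals), and it was 0.00037 without C2 replicate 2. The interval covers 1.10-fold lower to 1.07-fold higher signal, but a probe set this close to the bottom of the table can show little of a fall.

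Of the polysialic acid synthases, ST8SIA2 (NM_006011.3_psr1_at) had the smallest p of the 8. It measured 3.63, 3.57 and 3.52 in C2 and 3.75, 3.68 and 3.58 in F3. Each F3 array was above the C2 array of its number, by 0.11, 0.11 and 0.062, yet the populations overlapped because F3 replicate 3 was below C2 replicate 1. The log2 change was 0.095 (SE 0.062, 95% interval -0.048 to 0.24), or 1.07-fold, with an unadjusted limma p of 0.16 and an adjusted p of 0.97. In the fit blocked on replicate number the SE was 0.048, the unadjusted p 0.092 and the adjusted p 0.72. Differences of one sign in all 3 pairs occurred in 29.9% of all probe sets, and positive ones in 12.1%. Among the 8 members there were 2 such cases, ST8SIA2 and a probe set of ST8SIA4.

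ST8SIA4, the other polysialic acid synthase, was read by 3 probe sets named after 2 RefSeq transcripts, with changes of both signs and none past the threshold. Which transcripts each probe set reads was taken only from its identifier, since the sources used here do not give the probe sequences. The probe set NM_005668.3_psr1_s_at measured 2.56, 2.57 and 2.50 in C2 and 2.48, 2.40 and 2.53 in F3. The populations overlapped at F3 replicate 3, and the log2 change was -0.072 (SE 0.056, 95% interval -0.20 to 0.056, limma adjusted p = 0.97). The probe set NM_175052.1_psr1_at measured 2.11, 2.16 and 2.17 in C2 and 2.21, 2.19 and 2.24 in F3. All 3 F3 arrays lay above all 3 C2 arrays, the 1 case among the 8 members, where 10.3% of all probe sets showed no overlap in either direction. Its log2 change was 0.062 (SE 0.050, 95% interval -0.052 to 0.18, limma adjusted p = 0.97), and the mean level was the second lowest of the table. The probe set NM_175052.1_psr1_x_at, whose suffix by Affymetrix convention warns of probes shared with other sequences, measured 2.12, 2.09 and 2.10 in C2 and 2.12, 2.08 and 2.15 in F3, with a change of 0.011 that was -0.0041 without F3 replicate 3. The mean of the 3 probe sets changed by 0.00063.

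A difference between the ST8SIA4 probe sets was picked out after their values were seen. The log2 level of NM_005668.3_psr1_s_at minus that of NM_175052.1_psr1_at was 0.45, 0.41 and 0.33 on the C2 arrays and 0.28, 0.21 and 0.29 on the F3 arrays. All C2 arrays lay above all F3 arrays, with means of 0.39 ± 0.06 and 0.26 ± 0.04 (SD, n = 3 each), a difference of -0.13, F3 minus C2. Because the pair was chosen for this, no test is given. Among 143 pairs of probe sets of the same gene, 11.9% did not overlap in this way. The other pairings of the 3 ST8SIA4 probe sets gave differences of -0.083 and 0.051, also without overlap, and share arrays and probe sets with the first. All 3 probe sets lie among the 31 lowest of the 1259.

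ST8SIA3 (NM_015879.2_psr1_at), the maker of short sialic acid chains, measured 3.79, 3.77 and 3.73 in C2 and 3.88, 3.80 and 3.71 in F3. F3 spanned the whole C2 range. Its log2 change was 0.033 (SE 0.059, 95% interval -0.10 to 0.17, limma adjusted p = 1.00 to 2 decimals), and it was -0.0092 without F3 replicate 1.

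ST8SIA6 (NM_001004470.1_psr1_at) measured 2.64, 2.62 and 2.62 in C2 and 2.67, 2.55 and 2.42 in F3. The C2 arrays were tight, with an SD of 0.012, while the F3 arrays had an SD of 0.12 and lay on both sides of C2. The lowest was F3 replicate 3. The log2 change was -0.085 (SE 0.068, 95% interval -0.24 to 0.071, limma adjusted p = 0.97), and the same-numbered arrays differed by 0.023, -0.077 and -0.20. Without F3 replicate 3 the change was -0.023, and without F3 replicate 1 it was -0.15.

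**Figure D3:**
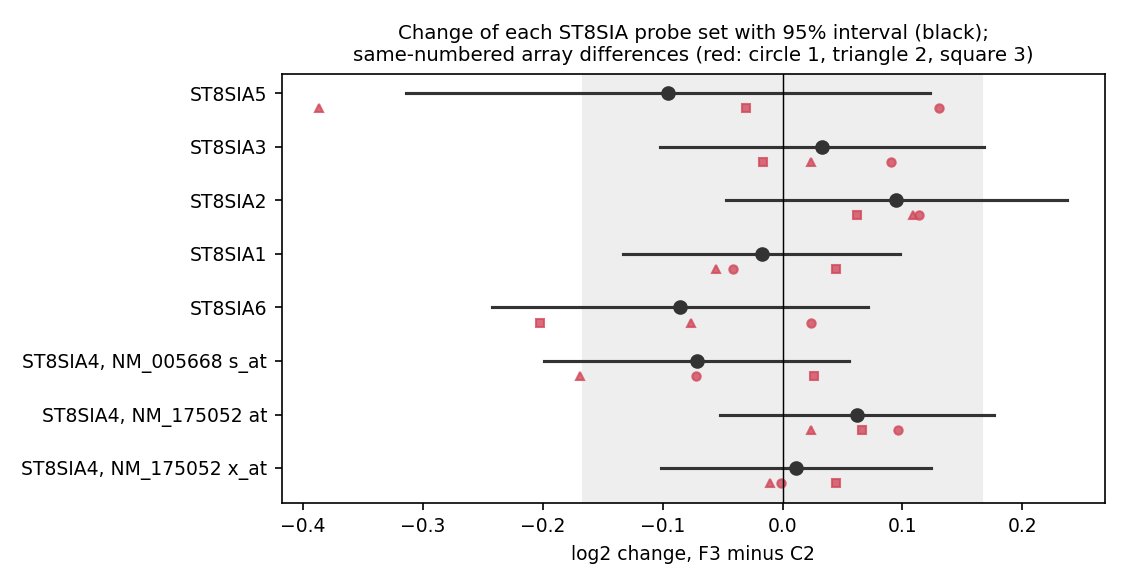
Log2 change, F3 minus C2 (horizontal axis), of each ST8SIA probe set with its 95% limma interval in black and the differences of the 3 pairs of same-numbered arrays in red. All 8 intervals include 0, the grey band holds 95% of the changes of all 1259 probe sets (up to 0.17 in size), and the largest single pair difference is -0.39 for ST8SIA5.

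The intervals bound what the arrays could have missed. In the fit without the replicate block, the interval of ST8SIA5 reached farthest, to -0.31 on the log2 scale. For the 7 other probe sets the farthest reach in that fit was 0.24 in size. With the block, the interval of ST8SIA5 was -0.33 to 0.14. To become another call beside PIGB at its SE without the block, ST8SIA5 would have needed a log2 change of 0.68, or 1.60-fold, ST8SIA2 one of 0.45, or 1.36-fold, and ST8SIA1 one of 0.36, or 1.28-fold. These sizes are of RMA signals, and RMA shrinks the changes of dim probe sets.

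The pattern of ST8SIA5 over the 6 arrays was closest to those of POFUT2, a protein O-fucosyltransferase, IDS, the lysosomal iduronate 2-sulfatase, and GALNT18, a GalNAc-transferase family member. Their Pearson correlations with ST8SIA5 were 0.96, 0.96 and 0.95 over 6 arrays, the highest among 1042 named probe sets, and Spearman's rho was 0.83 for each. Each of the 4 was highest on C2 replicate 2, where POFUT2 measured 7.83 against 7.62 to 7.71 on the other arrays, IDS 7.37 against 7.28 to 7.31, and GALNT18 8.65 against 8.21 to 8.30. Without that array the correlations were 0.77, 0.69 and 0.65 over 5 arrays, and without F3 replicate 1 as well they were 0.42, 0.42 and 0.29 over 4. The likeness rests on those arrays. The values of the 4 come from the same 6 arrays, and the other IDS probe set, at a similar mean level of 7.33, changed by -0.28 between populations where this one changed by -0.021.

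**Figure D4:**
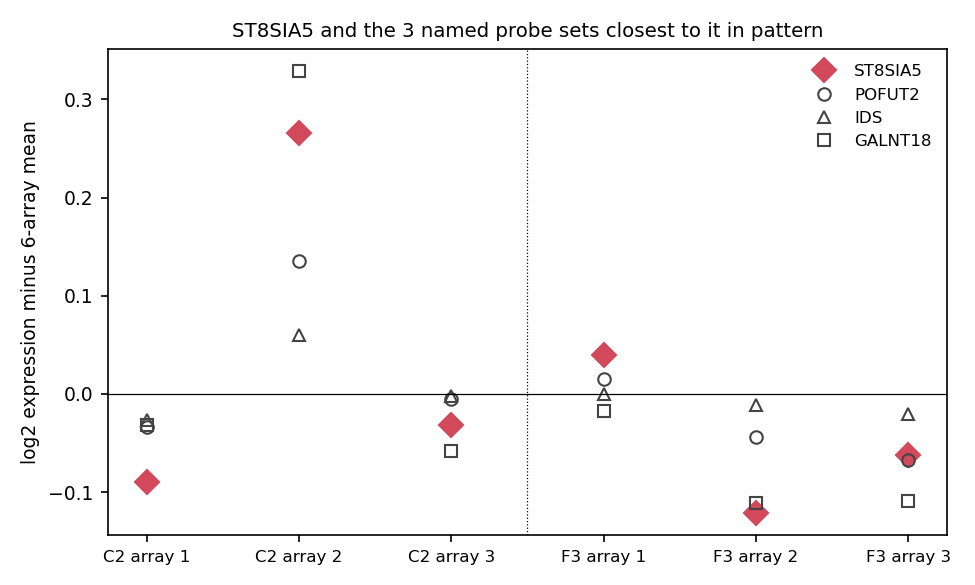
Log2 expression minus the 6-array mean (vertical axis) of ST8SIA5 (red diamonds) and of the 3 named probe sets with the highest correlation to it (open symbols), on the 3 C2 and 3 F3 arrays. All 4 are highest on C2 replicate 2, and they differ less on the remaining arrays.

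The donor side of the pathway had much higher signals than the ST8SIA genes themselves. Of 5 genes of CMP-sialic acid supply 4 were measured, 0 rose, 0 fell, and their mean log2 levels ran from 8.41 to 10.6. GNE, which starts sialic acid synthesis, changed by -0.028 (SE 0.086), NANS, the sialic acid synthase, by 0.032 (SE 0.068), CMAS, which activates sialic acid to its CMP form, by 0.018 (SE 0.059), and SLC35A1, the Golgi CMP-sialic acid transporter, by 0.023 (SE 0.084), none past the limma threshold. All 4 were lowest on replicate 1 of both populations: GNE at 8.30 and 8.24, and SLC35A1 at 8.32 and 8.34, against 8.43 to 8.58 for both genes on the remaining arrays, NANS at 10.53 and 10.50 against 10.61 to 10.73, and CMAS at 10.26 and 10.29 against 10.33 to 10.41. Over all probe sets the arrays of number 1 also deviated together from their population means (r = 0.52). The share of all probe sets with this pattern was not counted, so it is not shown to be particular to these genes. Of 6 genes that remove or modify sialic acid 4 were measured, all sialidases, and none passed. NEU4 was at 0.072, NEU2 at 0.047 and NEU1 at 0.030, with the other NEU1 probe set at -0.025.

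Gangliosides are built stepwise from lactosylceramide, and ST8SIA1 needs the product of ST3GAL5, the GM3 synthase. All 11 genes on the list of ganglioside synthesis were measured, 0 rose and 0 fell in limma, and their median log2 change was -0.027 beside -0.0064 over all probe sets. ST3GAL5 measured 5.54, 5.62 and 5.61 in C2 and 5.50, 5.62 and 5.52 in F3, so the populations overlapped, with a change of -0.044 (SE 0.056). B4GALNT1, which extends GM3, GD3 and lactosylceramide, had the smallest p of the list, with 4.93, 4.98 and 4.99 in C2 and 4.99, 5.14 and 5.09 in F3. These did not overlap, but narrowly, with the highest C2 array at 4.986 and the lowest F3 array at 4.989. Such a lack of overlap held for 1 of the 11 genes and 10.3% of all probe sets. The change of 0.11 (SE 0.058) had a limma adjusted p of 0.97. Next came ST3GAL1 at -0.12 and ST3GAL2 at -0.071, whose other probe set was at 0.067.

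Of 5 known carriers of polysialic acid, NCAM1 and CCR7 were measured and neither passed. NCAM1, the neural cell adhesion molecule, had a mean log2 level of 4.38 and a change of -0.0031 (95% interval -0.16 to 0.16), and its other probe set one of 4.11 and -0.044. CCR7, a chemokine receptor polysialylated in dendritic cells, was at 4.72 with a change of 0.011. Siglecs are receptors of sialylated glycans, and some of them bind alpha2,8-linked sialic acid. Of 14 measured siglec genes 0 passed in either direction. SIGLEC5, which is near-identical to SIGLEC14 over part of its sequence, had a change of 0.17 (limma adjusted p = 0.93). MAG, the myelin siglec, had one of 0.11, with overlapping populations. Its other probe sets were at 0.16 and 0.086, both without overlap. CD22, a B-cell siglec, had one of 0.086. By brightest probe set, the populations did not overlap for 2 of the 14 genes, CD22 among them, and for 10.3% of all probe sets.

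Set beside the rest of their enzyme family, a larger share of the ST8SIA genes had low signals, which limits what their changes can show. Of the 14 other sialyltransferase genes, all measured, 6 lay below the lower quartile of the table, against 5 of the 6 ST8SIA genes, and 7 of the 14 lay above ST8SIA5. The highest was ST6GALNAC4, a GalNAc sialyltransferase, at 11.2. None of the 14 passed in limma, and their median change was -0.041 beside -0.045 for the 6 ST8SIA genes, each gene taken by its brightest probe set. The smallest p of the 14 belonged to ST6GAL1, which adds alpha2,6-linked sialic acid to N-glycans, at -0.22 (SE 0.12), followed by ST6GALNAC4 at 0.23 (SE 0.15), whose other probe set, at a mean level of 11.1, was at 0.021, and ST3GAL1. ST6GAL1, like ST8SIA5, was highest on C2 replicate 2, at 7.90 against 7.29 to 7.57 on the other arrays. Without that array the change of ST6GAL1 was -0.082. That of ST6GALNAC4, which was lowest there at 10.7 against 11.1 to 11.5 on the other arrays, was 0.045, and its other probe set was at -0.039.

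**Figure D5:**
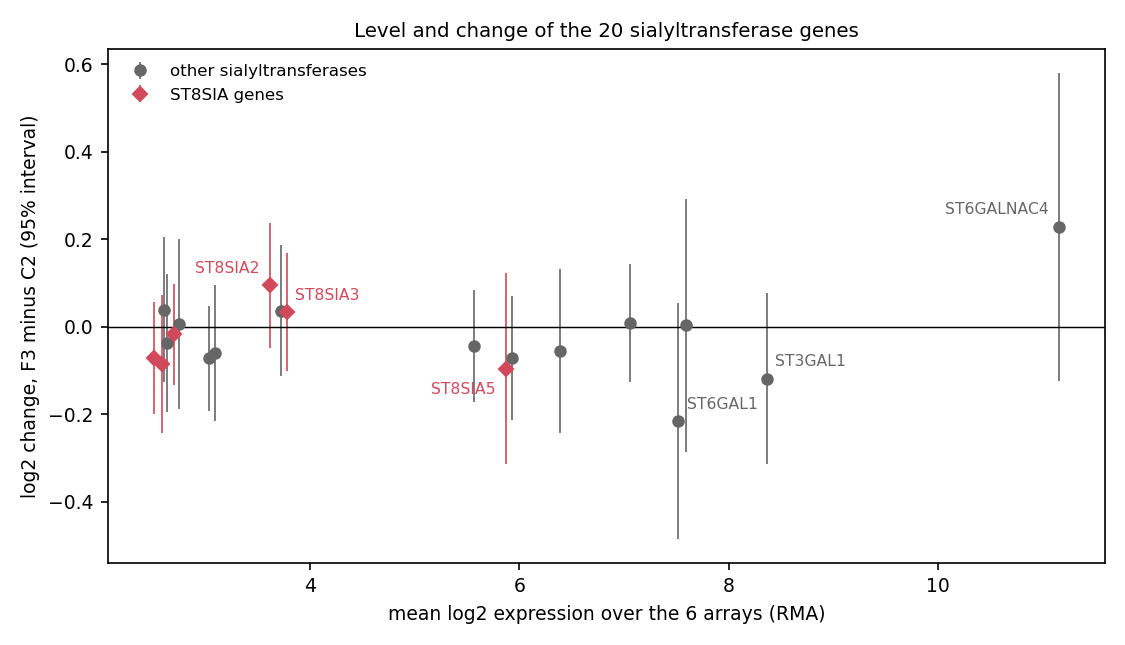
Log2 change, F3 minus C2, with 95% limma interval (vertical axis) against mean log2 expression over the 6 arrays (horizontal axis) for the 20 sialyltransferase genes, each by its brightest probe set. The 6 ST8SIA genes (red) lie between 2.51 and 5.87 and the 14 others (grey) between 2.60 and 11.2, and all 20 intervals include 0.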

How the data were processed

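RNA was extracted with Trizol and labelled with biotin by the standard Affymetrix method, per the labels' protocols. The authors deposited log2 expression, with a value for each probe set on each array. Per the submitters' processing notes the tool was RMA, which subtracts background, makes the distributions of arrays alike and combines the probes of a set; the sources used here give neither its version nor the probe set definitions. A shift shared by most genes would therefore not show.

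Names came from the RefSeq gene table of GRCh38.p14, by accession without version. Of 1259 probe sets 1043 matched 1 symbol, for 927 genes, and 216 stayed unnamed but in the tests. No coordinates are printed, since the sources used here do not name the genome build of the probe sets.

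F3 was compared with C2 over 3 arrays each in limma 3.58.1 (R 4.3.3), two-sided, with p-values adjusted by Benjamini and Hochberg's method over the whole table and called under 0.05. The script was tested on simulated data. The p-values measure the spread between these arrays, which may be technical; identical values made up at most 0.48% in any pair. Arrays of the same number share a suffix in their titles, whose meaning the labels do not state. They deviated together from their population means (r = 0.52, 0.18 and 0.26 for numbers 1, 2 and 3), and were therefore treated as pairs in the blocked fit. Arrays of different numbers gave r from -0.38 to 0.15, the highest for C2 replicate 2 with F3 replicate 3, close to that of number 2.

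The members, gene lists and naming rule were chosen with earlier results of these data known. The rule named all ST8SIA probe sets, all measured supply and carrier genes, the 3 smallest p of each other list of enzymes or siglecs, genes past the threshold, and the 3 probe sets most like ST8SIA5. Each gene of a list was taken by its brightest probe set.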

Additional observations from a re-analysis of the deposited data

How the results depend on the processing

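The count of ST8SIA probe sets past the threshold was 0 in each alternative run: median centring, the replicate block, quantile normalization over again, a filter on probe sets under the lower quartile, robust eBayes with an intensity trend, weighted arrays, each array left out, a threshold of 0.10 and an ordinary two-sample test. With the filter, ST8SIA5 was the 1 member left to test. Over all probe sets the count was 1; the replicate block gave 2, the ordinary test 0, and single arrays left out 0 to 2. The block changed no call of a member. Of 90 changes of members recomputed, none passed, 84 kept their sign and 6 turned, all close to 0. Leaving out 1 array gave -0.165 to 0.013 for ST8SIA5 (positive without C2 replicate 2), -0.043 to 0.00037 for ST8SIA1 (without the same array), -0.0092 to 0.074 for ST8SIA3 (negative without F3 replicate 1) and -0.0041 to 0.030 for the ST8SIA4 probe set NM_175052.1_psr1_x_at (without F3 replicate 3), which was also at -0.019 after quantile normalization. By the mean of its probe sets ST8SIA4 was at 0.00063. The cause of these turns was not tested. Low signal limits what 7 of the 8 probe sets can show. The correlations of ST8SIA5 and the changes of ST6GAL1 and ST6GALNAC4 without C2 replicate 2 were added after the data were seen, and there the ST6GALNAC4 probe set NM_175040.3_psr1_at was at -0.039 in place of 0.021.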
